A study of Mus musculus with 12 samples.

Results

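The mitochondrial ribosomal protein genes were described in murine glioma stem cells exposed to doranidazole, a radiosensitizer of the 2-nitroimidazole class, under hypoxia and normoxia. Members were the genes whose symbol in the array annotation begins with Mrpl or Mrps followed by a digit, each taken at its brightest probe set. The rule found 76 members, 48 named Mrpl and 28 named Mrps, among 22206 probe sets on the array, of which 19572 carried a gene symbol. Each member had a single probe set. Transcripts were measured on 12 arrays in 4 groups of 3. Hx D cells received 3 mM doranidazole for 24 h under 1% O2, and Hx P cells received PBS for 24 h under 1% O2. Nx D cells received 3 mM doranidazole for 24 h under 21% O2, and Nx P cells received PBS for 24 h under 21% O2. All 4 groups were GSC-H cells. These were taken out of late-stage tumors formed by Ink4a/Arf-null neural stem cells that overexpress H-RasV12, so every group lacks Ink4a/Arf and carries the oncogene. The cells are a single line and the 3 samples of a group belong to 1 experiment, so that the p-values measure the spread between those samples only.

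Mitochondria carry their own ribosome, which is built from RNAs encoded in mitochondrial DNA and from proteins that are encoded in the nucleus, made in the cytosol and imported. This mitoribosome translates only mRNAs of the mitochondrial genome, whose products are core subunits of respiratory complexes I, III and IV and of ATP synthase. The large subunit (Mrpl proteins) forms peptide bonds and holds the exit tunnel for the nascent chain, and the small subunit (Mrps proteins) binds mRNA and decodes it. Many members have bacterial counterparts, whereas others are found only in mitochondria. A few names mislead: Mrps30 and Mrps18a belong to the large subunit, and Mrps36 is now assigned to the 2-oxoglutarate dehydrogenase complex.

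All 76 members had a position in the RefSeq annotation (GRCm38.p6), spread over 17 chromosomes with at most 11 on 1 of them. The promoters are shown because some motifs were more frequent in them than in all genes, although the members do not share a locus. The genes were not matched for expression. A RefSeq window of 300 bases, 250 before and 50 after an annotated start, was found for 67 of 76. The letters CCGGAAG, a site of ETS factors such as Gabpa, occurred on either strand in 24 of 67 windows (35.8%), against 9.12% of the windows of 27025 genes. GCATGCGC, bound by Nrf1, occurred in 8 of 67 (11.9%, against 2.8% of all genes), and AAGATGGCG, bound by Yy1, in 8 of 67 (11.9%, against 1.49%). The E-box CACGTG occurred in 5 of 67 (7.46%, against 7.24%), a share near that of all genes. At least 1 of the 4 motifs stood in 36 of 67 member windows (53.7%), against 18.5% of all genes. Motifs were counted separately where a window held several. Among members with a window, those that fell with doranidazole in hypoxia held a motif in 6 of 18 (33.3%), those that rose in 1 of 4 and those that did not pass in 29 of 45 (64.4%), which is given as a description. A match of letters is not evidence of binding. The windows below belong to members to which the results return, in 5′ to 3′ order of the gene's strand, with motif matches in capitals. They were picked among windows with a match, and those of Mrpl23 and Mrpl24, also named below, held none. Mrpl17 (chr7:105811038-105811337, minus strand) holds CCGGAAG and the reverse complement of the Nrf1 site, and Mrpl58 (chr11:115403502-115403801, plus strand) holds CCGGAAG at 2 places, 17 and 2 bases before its start. Mrpl35 (chr6:71823735-71824034, minus strand) holds the Yy1 site 24 bases after its start, and Mrps18c (chr5:100798509-100798808, plus strand) holds an E-box beside a reverse CCGGAAG.
Mrpl17: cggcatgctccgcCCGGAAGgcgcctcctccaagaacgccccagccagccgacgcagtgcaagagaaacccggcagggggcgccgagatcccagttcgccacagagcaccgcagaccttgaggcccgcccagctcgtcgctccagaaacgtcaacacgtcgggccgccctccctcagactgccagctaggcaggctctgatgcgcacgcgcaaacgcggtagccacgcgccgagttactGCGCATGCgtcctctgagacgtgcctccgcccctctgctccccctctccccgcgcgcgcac
Mrpl58: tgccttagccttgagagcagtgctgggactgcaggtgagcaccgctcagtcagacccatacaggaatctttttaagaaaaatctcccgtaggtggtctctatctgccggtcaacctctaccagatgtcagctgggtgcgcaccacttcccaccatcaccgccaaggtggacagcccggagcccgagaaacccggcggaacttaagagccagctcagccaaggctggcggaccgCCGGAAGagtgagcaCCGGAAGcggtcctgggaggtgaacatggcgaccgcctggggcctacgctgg
Mrpl35: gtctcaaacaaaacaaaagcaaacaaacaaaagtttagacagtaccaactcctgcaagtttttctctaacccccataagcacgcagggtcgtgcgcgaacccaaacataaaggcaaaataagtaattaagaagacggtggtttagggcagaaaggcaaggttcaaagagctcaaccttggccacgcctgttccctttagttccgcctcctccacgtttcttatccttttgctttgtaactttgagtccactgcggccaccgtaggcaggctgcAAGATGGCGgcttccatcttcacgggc
Mrps18c: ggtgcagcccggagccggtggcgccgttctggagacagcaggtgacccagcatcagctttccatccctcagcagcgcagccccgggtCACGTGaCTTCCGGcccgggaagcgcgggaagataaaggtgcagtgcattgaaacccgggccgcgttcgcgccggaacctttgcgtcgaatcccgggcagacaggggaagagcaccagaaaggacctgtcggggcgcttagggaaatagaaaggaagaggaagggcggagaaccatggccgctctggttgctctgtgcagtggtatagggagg

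Some properties of the arrays as a whole bear on what follows. The upper quartile of log2 signal over all probe sets was 8.60 to 9.02 on the 3 Hx D arrays and 9.09 to 9.27 on the other 9, and the SD over probe sets was 3.51 to 3.67 on the Hx D arrays and 3.72 to 3.81 on the other 9. The mean log2 signal of 5 neural stem cell markers (Nes, Sox2, Msi1, Olig2 and Fabp7) was 8.28 to 8.47 on the Hx D arrays and 10.2 to 11.0 on the other 9. In the fit, 4 of the 5 fell in Hx D against Hx P cells, Sox2 by 3.50 and Fabp7 by 5.88 on the log2 scale, and Nes did not pass. Marker lists of microglia, endothelium, fibroblasts, neurons and oligodendrocytes stayed at mean log2 signals of 2.73 to 4.09 on the Hx D arrays and 2.57 to 3.88 on the others. Single genes of these lists rose in Hx D against Hx P cells, with log2 differences of 1.28 for Pecam1, 0.88 for Itgam and 0.80 for Col1a1. The part of these array-wide and marker differences in the member values was not tested. In such bulk samples, fewer cells of a type and less RNA per cell cannot be told apart. Car9, a target of the hypoxic response, was higher in Hx P than in Nx P cells by 8.23 on the log2 scale. With doranidazole in hypoxia Car9 fell by 7.92, to a mean of 7.05 in Hx D cells. Its means were 14.97 in Hx P and 6.74 in Nx P cells. Of the other listed condition checks, Ankrd37 fell by 2.32, and Slc2a1 and Vegfa did not pass. Nqo1, a target of the oxidative stress response, rose by 7.66 with doranidazole in hypoxia and by 4.37 in normoxia. All 5 checks were higher in Hx D than in Nx D cells. The part of these differences in the member values was not tested.

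Members averaged log2 signals between 3.95 (Mrpl36) and 12.99 (Mrpl33), with a median of 9.36. Brightness depends on the probes, so that levels are compared between groups and not between genes. The median member signal was 8.61, 8.93 and 9.19 on the Hx D arrays, 9.15, 8.93 and 9.35 on the Hx P arrays, 9.50, 9.46 and 9.39 on the Nx D arrays, and 9.71, 9.91 and 9.74 on the Nx P arrays. The hypoxic arrays thus lay below the normoxic ones without overlap, whereas Hx D and Hx P arrays overlapped. The Nx D medians lay below all 3 Nx P medians.

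**Figure D1:**
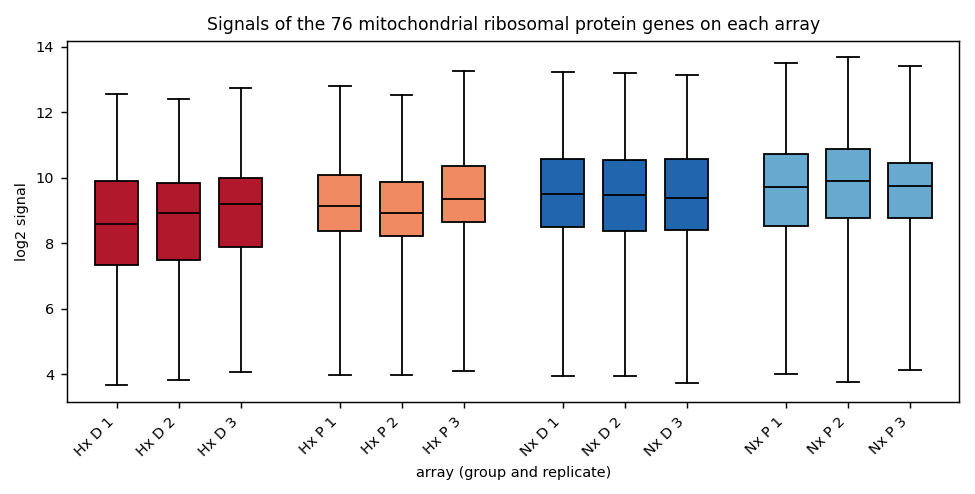
Log2 signals of the 76 mitochondrial ribosomal protein genes on each of the 12 arrays (x axis: group and replicate; boxes: middle 50% of genes with the median as a line; whiskers: lowest and highest gene). The 6 hypoxic arrays have medians of 8.61 to 9.35, and the 6 normoxic arrays have medians of 9.39 to 9.91.

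Doranidazole in hypoxia, the comparison at the center of the study, changed members in both directions. In Hx D against Hx P cells 23 of 76 members fell (30.3%) and 4 rose (5.26%), and 49 did not pass, at a Benjamini-Hochberg adjusted p under 0.05 in limma over all probe sets. Over all 22206 probe sets, 15.1% were called lower and 12.6% higher. The members are bright genes, however, and bright genes fell more often: of the 6452 probe sets with a mean log2 signal of at least 8.39, 31% were lower and 16.6% higher, beside 29.8% and 7.02% of the 57 members among them. This limit is the lower quartile of the member means and was chosen after the values were seen. The share of members that fell is thus near that of genes of like brightness. The median log2 difference of the members was -0.26 with 57 of 76 below 0 on the deposited scale, but it was -0.02 with 39 below 0 after quantile normalization and -0.07 with 44 below 0 after cyclic loess normalization. Setting the array medians equal gave -0.39 with 61 below 0. The median over all probe sets was 0.09 as deposited and 0.02, -0.01 and -0.03 after quantile, cyclic loess and median scaling, so that setting the array medians equal moved all genes by more than 0.1. Without Hx P replicate 1, 15 members were lower (19.7%), beside 12.3% of all probe sets. Without Hx P replicate 2, 2 were higher (2.63%), beside 9.66%.

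**Figure D2:**
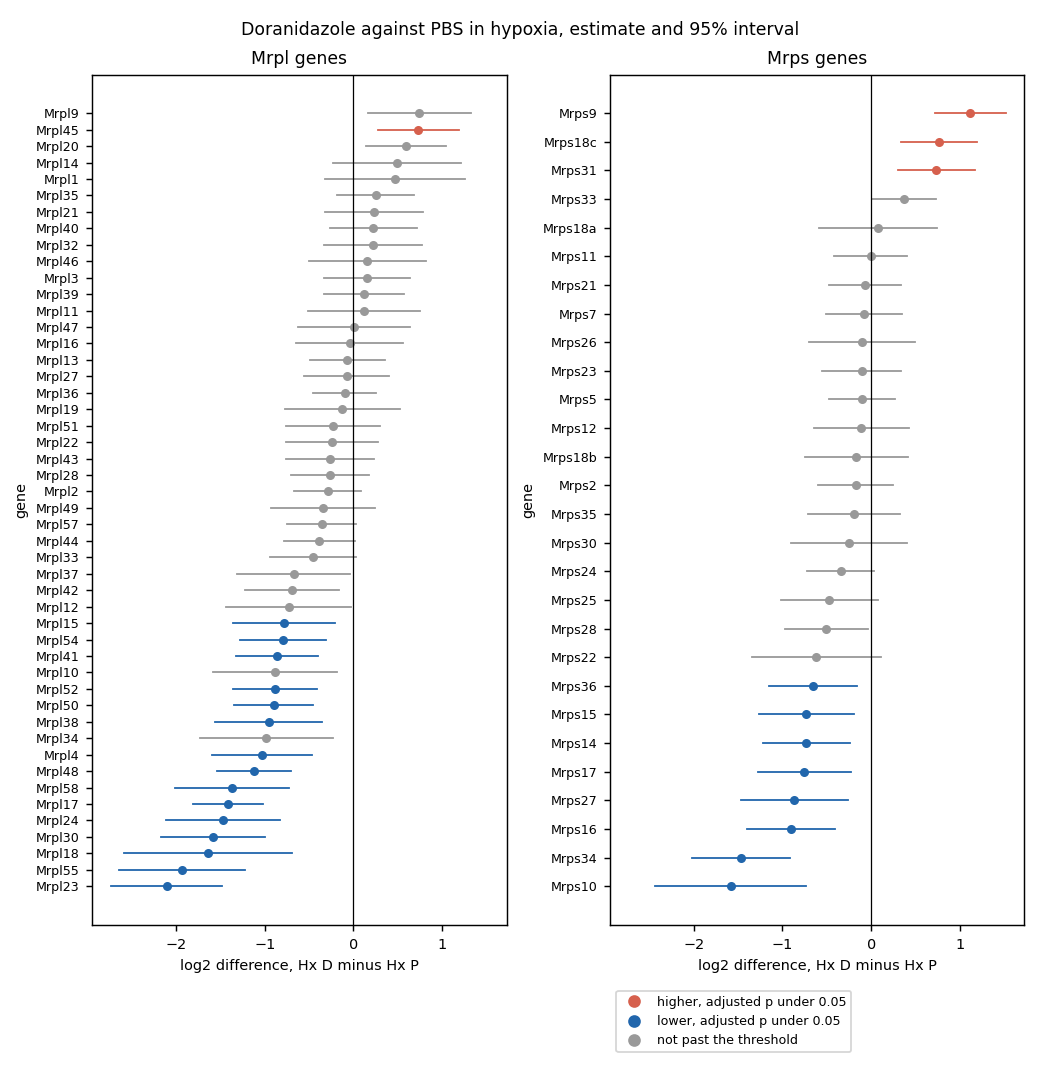
Log2 difference, Hx D minus Hx P (x axis), of each Mrpl gene (left) and Mrps gene (right), with points for the estimate, lines for the 95% confidence interval and color for the call at an adjusted p under 0.05. The estimates run from -2.11 for Mrpl23 to 1.12 for Mrps9, and 23 members are called lower and 4 higher.

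Among the 29 large-subunit proteins listed with bacterial counterparts, 7 fell (24.1%) and none rose with doranidazole in hypoxia. Of all probe sets 15.1% fell and 12.6% rose, and of the bright ones 31% and 16.6%. After quantile or cyclic loess normalization 6 of the 29 fell and 2 rose. Of all probe sets 12.9% or 13.7% then fell and 13.5% or 12.6% rose. Mrpl23 and Mrpl24, homologs of bacterial L23 and L24, line the exit of the peptide tunnel. Mrpl23 had log2 signals of 6.53, 7.54 and 6.86 in Hx D cells, against 9.13, 9.10 and 9.02 in Hx P cells. It fell by 2.11 on the log2 scale (SE 0.29, adjusted p = 0.000145), the largest fall among the members, with every Hx D array below every Hx P array. Mrpl24 had 9.52, 9.48 and 9.53 in Hx D cells, against 11.12, 11.44 and 10.39 in Hx P cells. It fell by 1.47 (SE 0.30, adjusted p = 0.00248) with no overlap. Mrpl17, the homolog of bacterial L17 whose promoter holds an ETS and an Nrf1 match, gave the smallest adjusted p of any member. Its log2 signals were 10.35, 10.47 and 10.75 in Hx D cells, against 11.89, 11.72 and 12.20 in Hx P cells, a fall of 1.41 (SE 0.18, adjusted p = 8.9e-05). Mrpl30 had 7.60, 6.49 and 7.72 in Hx D cells, against 8.95, 8.92 and 8.70 in Hx P cells. It fell by 1.58 (SE 0.27, adjusted p = 0.000755). Mrpl4 fell by 1.03 (SE 0.26, adjusted p = 0.0099), to a mean of 5.83 in Hx D cells, against 6.86 in Hx P cells. Of the 8 members at the tunnel exit, Mrpl17, Mrpl23 and Mrpl24 fell (37.5%, beside 31% of bright probe sets) and 1 rose (12.5%, beside 16.6%). That one was Mrpl45, which anchors the mitoribosome to the inner membrane beside the insertase Oxa1l. Mrpl45 had 12.56, 12.40 and 12.73 in Hx D cells, against 11.88, 11.97 and 11.64 in Hx P cells, a difference of 0.73 (SE 0.21, adjusted p = 0.0209). Its call did not hold without Hx P replicate 1, Hx P replicate 3 or Hx D replicate 3 or with array medians set equal (adjusted p up to 0.0762).

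The central protuberance is the part of the large subunit that faces the head of the small subunit and carries a structural tRNA in mitochondria. It held 5 of 7 members lower (71.4%) and none higher, with a median log2 difference of -0.96. Of all probe sets 15.1% were lower, and of the bright ones 31%. After quantile normalization 3 of the 7 members were lower and after cyclic loess normalization 4, beside 12.9% and 13.7% of all probe sets. The member medians were then -0.73 and -0.74, and again none was higher. Mrpl18, which in bacteria binds the 5S rRNA, had 6.43, 7.18 and 7.77 in Hx D cells, against 8.51, 8.28 and 9.49 in Hx P cells. It fell by 1.64 (SE 0.44, adjusted p = 0.0133), and the call did not hold without Hx P replicate 3 or Hx D replicate 1 (adjusted p up to 0.0606). Mrpl58, also called ICT1, is a peptidyl-tRNA hydrolase built into the large subunit. It had 8.60, 8.10 and 9.28 in Hx D cells, against 10.12, 9.81 and 10.16 in Hx P cells, a fall of 1.37 (SE 0.29, adjusted p = 0.00374). Mrpl48 had 9.98, 9.58 and 9.86 in Hx D cells, against 11.08, 10.89 and 10.80 in Hx P cells, a fall of 1.12 (SE 0.19, adjusted p = 0.00082). In all 3 genes the arrays of the groups did not overlap. Mrpl52 fell by 0.89 (SE 0.22, adjusted p = 0.0086) and Mrpl38 by 0.96 (SE 0.28, adjusted p = 0.0211). The call of Mrpl52 was lost after quantile normalization (adjusted p = 0.0538), and that of Mrpl38 after quantile and cyclic loess normalization and without Hx P replicate 1, Hx P replicate 3 or Hx D replicate 2 (adjusted p up to 0.0864). Mrpl40 and Mrpl46 did not pass, with log2 differences of 0.22 and 0.16. The protuberance list was described with the earlier results known, and no test was made of it as a set.

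Of the 21 measured large-subunit proteins listed as mitochondria-specific, 8 fell (38.1%) and 1, Mrpl45, rose (4.76%). Of all probe sets 15.1% fell and 12.6% rose, and of the bright ones 31% and 16.6%. After quantile normalization 5 of the 21 proteins fell and 2 rose, beside 12.9% and 13.5% of all probe sets. The list includes the proteins of the protuberance other than Mrpl18. It also includes Mrps18a, although that protein descends from bacterial S18. Mrpl55 had 5.54, 6.67 and 7.08 in Hx D cells, against 8.19, 8.25 and 8.67 in Hx P cells. It fell by 1.94 (SE 0.33, adjusted p = 0.000707), the next after Mrpl23 in size. Mrpl41 had 6.67, 6.68 and 6.95 in Hx D cells, against 7.60, 7.78 and 7.51 in Hx P cells, and it fell by 0.86 (SE 0.21, adjusted p = 0.0088). On the stalk, the flexible arm that recruits translation factors, 1 of the 4 measured members passed (25%). It fell, as did 15.1% of all probe sets and 31% of the bright ones. Mrpl54 fell by 0.80 (SE 0.23, adjusted p = 0.0184), with 4.61, 4.82 and 4.78 in Hx D cells, against 5.82, 5.29 and 5.50 in Hx P cells. Its call did not hold without Hx P replicate 1 or Hx D replicate 1 (adjusted p up to 0.0874). Mrpl10, Mrpl12 and Mrpl11 had log2 differences of -0.88, -0.73 and 0.12 and did not pass.

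In the small subunit, 5 of 15 proteins listed with bacterial counterparts fell (33.3%) and 2 rose (13.3%). Of 10 listed as mitochondria-specific, Mrps18b included, 2 fell (20%) and 1 rose (10%). Of all probe sets 15.1% fell and 12.6% rose, and of the bright ones 31% and 16.6%. After quantile or cyclic loess normalization the counts of these lists were 3 lower and 2 higher, and 1 lower and 2 higher. Of all probe sets 12.9% or 13.7% were then lower and 13.5% or 12.6% higher. Mrps10, a head protein homologous to bacterial S10, had 7.58, 7.64 and 9.29 in Hx D cells, against 9.81, 9.88 and 9.57 in Hx P cells. It fell by 1.58 (SE 0.39, adjusted p = 0.00912), and Hx D replicate 3 lay close to the Hx P arrays. Mrps34, which is needed for a stable small subunit, had 7.22, 7.33 and 8.14 in Hx D cells, against 8.89, 9.12 and 9.10 in Hx P cells. It fell by 1.47 (SE 0.25, adjusted p = 0.000815). Mrps16 fell by 0.91 (SE 0.23, adjusted p = 0.00967), to a mean of 6.03 in Hx D cells, against 6.94 in Hx P cells. Mrps27, a protein with pentatricopeptide repeats, fell by 0.87 (SE 0.28, adjusted p = 0.0337). The call of Mrps27 was lost in 7 of 21 alternatives, including both stronger normalizations, array weights and the omission of Hx P replicate 1, Hx P replicate 3, Hx D replicate 1 or Hx D replicate 2 (adjusted p up to 0.22). The remaining members that fell were Mrpl50 (-0.90), Mrpl15 (-0.78), Mrps17 (-0.75), Mrps14 (-0.73), Mrps15 (-0.73) and Mrps36 (-0.66), and in Mrpl15, Mrps17 and Mrps36 the arrays of the groups overlapped. The 49 members that did not pass had log2 differences from -0.98 (Mrpl34) to 0.74 (Mrpl9).

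Of the 4 members that rose, 3 were small-subunit genes. Mrps9, the homolog of bacterial S9, had 10.11, 10.11 and 10.11 in Hx D cells, against 8.79, 8.94 and 9.24 in Hx P cells. Its rise of 1.12 (SE 0.18, adjusted p = 0.000536, 2.17-fold) held in each of 21 alternatives. Mrps18c had 10.18, 9.63 and 9.96 in Hx D cells, against 9.19, 8.91 and 9.38 in Hx P cells, a rise of 0.76 (SE 0.20, adjusted p = 0.0116). The call was lost without Hx P replicate 2 (adjusted p = 0.0546). Mrps18a, Mrps18b and Mrps18c all descend from bacterial S18 and are fixed at different places of the mitoribosome. The log2 differences of the others were 0.08 for Mrps18a and -0.17 for Mrps18b, neither past the threshold, and their signs turned under some alternatives. Mrps31 had 9.13, 9.74 and 9.06 in Hx D cells, against 8.46, 8.49 and 8.79 in Hx P cells. Its rise of 0.73 (SE 0.20, adjusted p = 0.0158) was lost in the fit of the 6 hypoxia arrays alone and without Hx P replicate 1, Hx P replicate 2 or Hx D replicate 2 (adjusted p up to 0.0686). Of the 20 members named in this comparison that passed, 12 kept their call in all 21 alternatives, 8 lost it in at least 1, and none turned its direction.

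**Figure D3:**
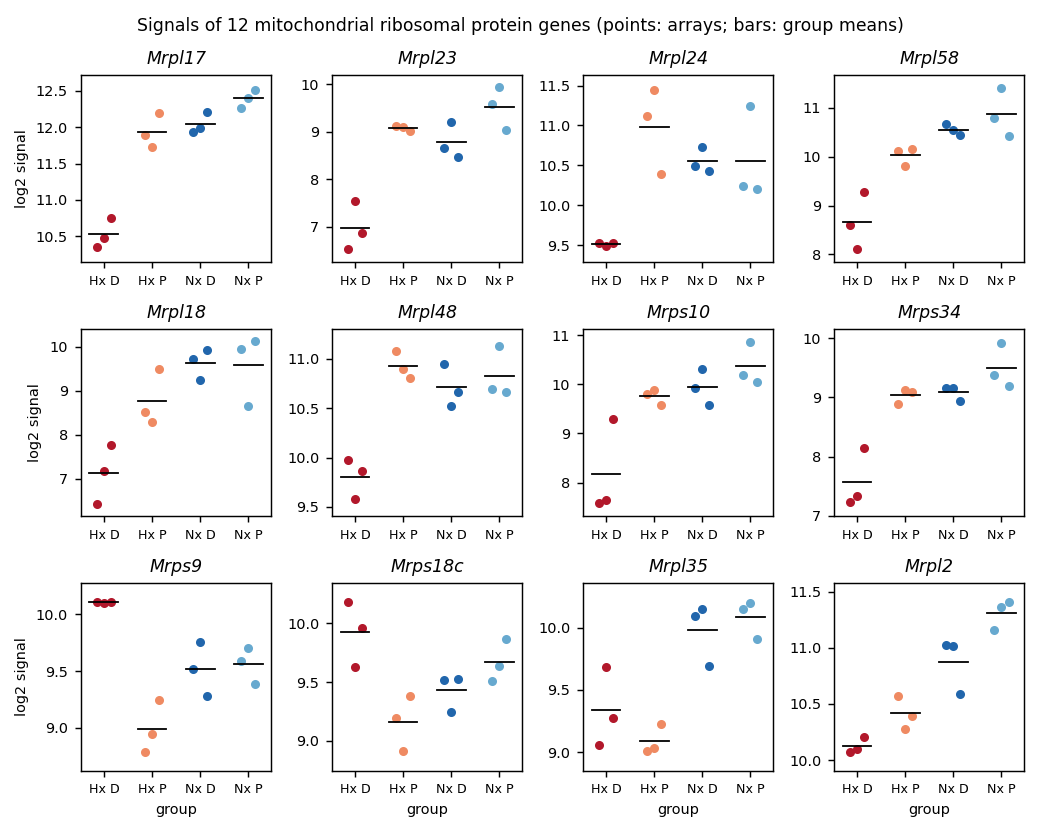
Log2 signals (y axis) of 12 members in the 4 groups (x axis), with points for the arrays and bars for the group means of 3. The Hx D arrays of Mrpl17 lie at 10.35 to 10.75 and those of Mrps9 at 10.11, below and above all other arrays of the same gene, and Mrpl35 and Mrpl2 are lower in Hx P than in Nx P cells.

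Doranidazole in normoxia gave no member past the threshold in either direction. At an unadjusted p under 0.05 in limma stood 11 of 76 members, beside 2841 of all 22206 probe sets, a share of similar size. Over all probe sets 1.29% were called higher and 0.293% lower in Nx D against Nx P cells. The log2 differences of the members ran from -0.76 (Mrps16) to 0.44 (Mrps36). The median was -0.24 with 59 of 76 below 0, beside a median of -0.01 over all probe sets and 0.02 over the bright ones, and it was -0.26, -0.28 and -0.28 after median, quantile and cyclic loess scaling. Samples of the same replicate number deviated together in normoxia. When the 6 normoxia arrays were fitted with replicate blocks, 3 members fell and none rose, while 3.1% of all probe sets were lower and 4.17% higher. This fit was chosen after the data were seen. The 3 were small-subunit proteins Mrps16 (log2 difference -0.76, adjusted p = 0.0319) and Mrps28 (-0.75, adjusted p = 0.0448) and the tunnel protein Mrpl23 (-0.73, adjusted p = 0.0378). Mrps16 had 6.53, 7.25 and 6.53 in Nx D cells, against 7.47, 7.86 and 7.27 in Nx P cells, with no overlap. With array weights, 2 members were lower (2.63%), beside 2.29% of all probe sets.

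The responses to doranidazole under 1% and 21% O2 come from different arrays, so that their difference could be tested. The test asks whether the signed change in hypoxia differed from that in normoxia, in either direction. It called 2 members higher (2.63%) and 7 lower (9.21%), beside 5.02% and 8.5% of all probe sets. Among bright probe sets 7.8% were higher and 18.3% lower, beside 3.51% and 10.5% of the 57 bright members. The median difference of response was -0.11, or -0.22 with array medians set equal, but it was 0.17 after quantile and 0.13 after cyclic loess normalization, and it has no settled direction. Mrps9 differed by 1.16 (SE 0.26, adjusted p = 0.00955), from a rise of 1.12 in hypoxia and a log2 difference of -0.05 in normoxia, where the arrays read 9.52, 9.76 and 9.28 in Nx D cells and 9.59, 9.71 and 9.39 in Nx P cells. Its difference passed in all 20 alternatives, as did that of Mrpl17, while the other 7 of the 9 members lost theirs in 8 to 13 of them. Mrps18c differed by 1.01 (SE 0.28, adjusted p = 0.031), with -0.24 in normoxia. Mrpl24 differed by -1.46 (SE 0.42, adjusted p = 0.0366), Mrpl30 by -1.41 (SE 0.38, adjusted p = 0.0274) and Mrpl23 by -1.37 (SE 0.41, adjusted p = 0.0424). Mrpl41 differed by -1.09, Mrpl17 by -1.06 and Mrpl48 by -1.0. Mrps36 differed by -1.10 (SE 0.32, adjusted p = 0.0404), with 8.18, 8.51 and 8.88 in Hx D cells against 9.46, 8.72 and 9.36 in Hx P cells, and 9.61, 9.34 and 9.24 in Nx D cells against 8.98, 8.89 and 8.99 in Nx P cells. Its arrays overlapped in hypoxia and did not in normoxia, where the Nx D arrays were the higher ones. The count of lower members depended on single arrays. It was 1 without Nx P replicate 1, Nx D replicate 1 or Hx P replicate 1, 2 without Nx P replicate 3, Nx D replicate 2 or Hx P replicate 2, 3 without Hx D replicate 1, 4 without Hx D replicate 2 and 14 without Hx D replicate 3. In the same fits 6.4% to 7.45% of all probe sets were lower, and 11.6% without Hx D replicate 3. The count of higher members was 1 (1.32%) without Nx P replicate 2, any Nx D replicate, Hx P replicate 1, Hx P replicate 2 or Hx D replicate 1. In those fits 3.41% to 4.56% of all probe sets were higher. Without Hx P replicate 3 it was 4 members (5.26%), beside 4.8% of all probe sets. Across the 76 members the log2 differences in hypoxia and normoxia had a Pearson r of 0.166 and a Spearman rho of 0.13, beside 0.304 and 0.17 over all probe sets, which describes genes that are not independent replicates.

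Hypoxia alone gave small differences, most of them of one sign. In Hx P against Nx P cells 68 of 76 members had a lower mean, and the median log2 difference was -0.57, beside -0.01 over all probe sets and -0.05 over the bright ones. The median was -0.53, -0.50 and -0.59 after quantile, cyclic loess and median scaling, with 68, 66 and 68 members below 0. Only 2 members passed the adjusted threshold, both lower (2.63%), where 0.518% of all probe sets were lower and 1.46% higher. At an unadjusted p under 0.05, 39 members were lower (51.3%), against 7.47% of all probe sets. In 39 members all 3 Hx P arrays lay below all 3 Nx P arrays, against 9.77% of all probe sets, and in 0 members they lay above. Mrpl2, which lies near the peptidyl transferase center, had 10.57, 10.28 and 10.40 in Hx P cells, against 11.16, 11.36 and 11.41 in Nx P cells. It was lower by a log2 difference of -0.89 (SE 0.17, adjusted p = 0.0208). Mrpl35, whose promoter holds the Yy1 match, had 9.01, 9.03 and 9.23 in Hx P cells, against 10.16, 10.20 and 9.91 in Nx P cells, a log2 difference of -1.0 (SE 0.20, adjusted p = 0.0239). Neither call held in the fit of those 6 arrays alone or without Nx P replicate 2, Hx P replicate 1 or Hx P replicate 2. That of Mrpl2 was also lost without Nx P replicate 3 and that of Mrpl35 without Nx P replicate 1 (adjusted p up to 0.125 for Mrpl2 and 0.122 for Mrpl35). Next came Mrpl13 at -0.81 (adjusted p = 0.0561), Mrpl42 at -0.95 (0.0708) and Mrps7 at -0.76 (0.0714), which did not pass. All 15 small-subunit proteins listed with bacterial counterparts had a lower mean, with a median of -0.57, and 27 of 29 of those of the large subunit, with a median of -0.67. The large-subunit proteins listed as mitochondria-specific had a median of -0.21 with 17 of 21 below 0. The 8 members with a higher mean in Hx P cells, none past the threshold, ran up to 0.42 (Mrpl24). The count of lower members was 24 (31.6%) with array weights, where 5.56% of all probe sets were lower. It was 9 (11.8%) without Hx P replicate 3 and 4 (5.26%) without Hx D replicate 3, beside 3.5% and 0.91% of all probe sets. It was 1 without Nx P replicate 1 or Nx P replicate 3, beside 0.104% and 0.176%, and 0 without Nx P replicate 2, Hx P replicate 1 or Hx P replicate 2, beside 0.198%, 0.063% and 0.045%.

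**Figure D4:**
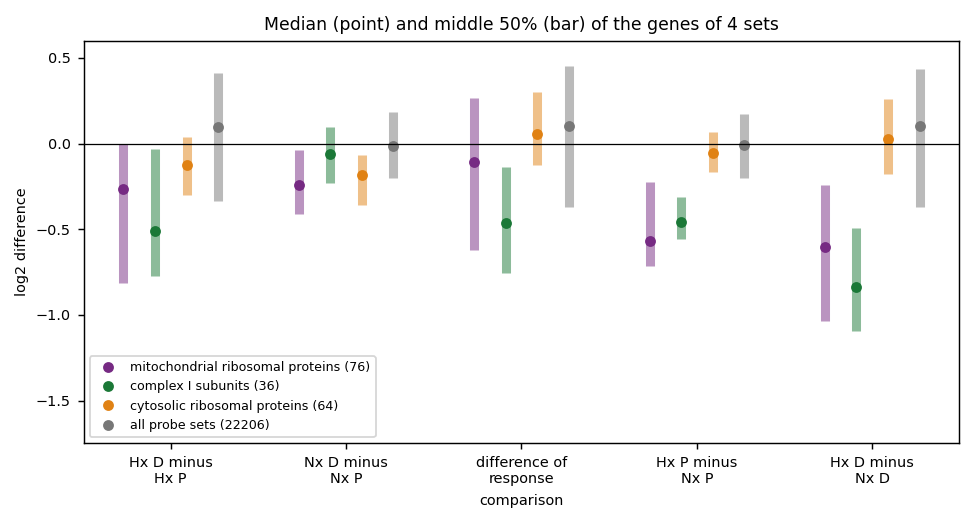
Log2 difference (y axis) in the 5 comparisons (x axis) for the 76 mitochondrial ribosomal proteins, 36 complex I subunits, 64 cytosolic ribosomal proteins and all 22206 probe sets, with points for the median and bars for the middle 50% of genes. In Hx P minus Nx P the medians are -0.57, -0.46, -0.05 and -0.01.

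Under doranidazole the hypoxic and normoxic cells differed in more members. This comparison shares the Hx D arrays with the drug comparison in hypoxia, so its values stand beside those above and add no independent weight. In Hx D against Nx D cells 36 of 76 members were lower (47.4%) and 2 higher (2.63%), where 16.5% of all probe sets were lower and 13.5% higher. Among bright probe sets 33.2% were lower, beside 54.4% of the 57 bright members. The median was -0.60, or -0.74 with array medians set equal, and -0.27 and -0.28 after quantile and cyclic loess normalization. Mrpl18 had 6.43, 7.18 and 7.77 in Hx D cells, against 9.72, 9.25 and 9.94 in Nx D cells, a log2 difference of -2.51 (SE 0.44, adjusted p = 0.000916). Mrpl37 had 8.04, 8.82 and 7.66 in Hx D cells, against 10.59, 10.04 and 9.68 in Nx D cells, a difference of -1.93 (SE 0.29, adjusted p = 0.000344). Mrpl34 differed by -1.91 (SE 0.35, adjusted p = 0.00123), Mrpl58 by -1.89 (SE 0.29, adjusted p = 0.000414) and Mrpl23 by -1.80 (SE 0.29, adjusted p = 0.000518). These 5 calls held in all 21 alternatives. Mrps9 and Mrps33, both of the small subunit, were higher by 0.59 (adjusted p = 0.0267) and 0.56 (adjusted p = 0.0228). Mrps33 had 11.10, 11.25 and 10.93 in Hx D cells, against 10.49, 10.70 and 10.40 in Nx D cells. Neither rise held with array medians set equal, with the trended robust prior, in the fit of the compared groups alone, or without Nx D replicate 1, Nx D replicate 3 or Hx D replicate 2 (adjusted p up to 0.108 for Mrps9 and 0.0821 for Mrps33). Without Hx D replicate 1 only Mrps33 was higher, and without Hx D replicate 2 only Mrps18c was.

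**Figure D5:**
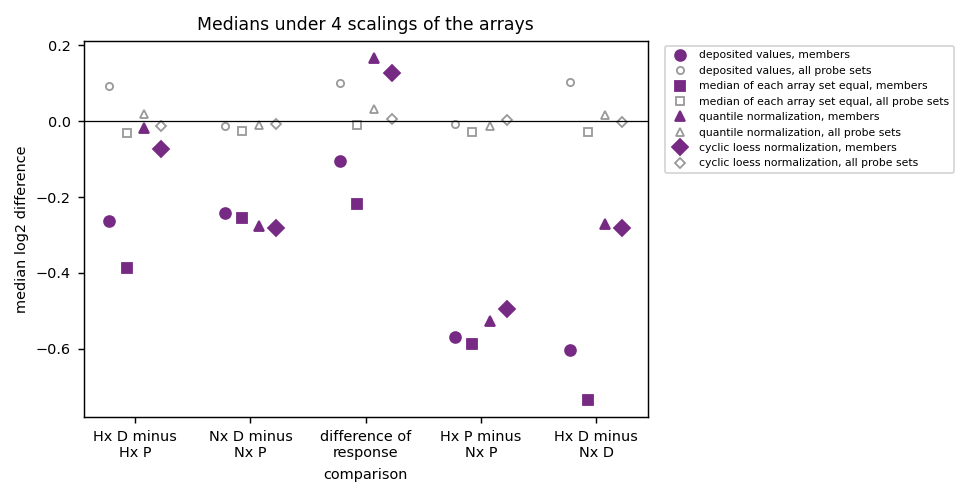
Median log2 difference (y axis) of the 76 members (filled) and of all probe sets (open) in the 5 comparisons (x axis) under 4 scalings of the arrays (marker shapes). The member median in Hx P minus Nx P stays between -0.59 and -0.50, that of Hx D minus Hx P runs from -0.39 to -0.02, and the difference of response lies on both sides of 0.

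Complex I subunits and cytosolic ribosomal proteins, as a respiratory and a ribosomal group, were set beside the members. With doranidazole in hypoxia 15 of 36 complex I subunits fell (41.7%) and 1 rose (2.78%), with a median of -0.51. Of all probe sets 15.1% fell and 12.6% rose, and of the bright ones 31% and 16.6%. After quantile or cyclic loess normalization 8 complex I subunits fell (medians -0.25 and -0.31), beside 12.9% and 13.7% of all probe sets. Of 64 cytosolic ribosomal proteins 5 fell (7.81%) and 1 rose (1.56%). Their median was -0.13 as deposited and turned to 0.02 and 0.04 after quantile and cyclic loess normalization. In Hx P against Nx P cells the medians were -0.46 for complex I subunits, with 33 of 36 below 0, and -0.05 for cytosolic ribosomal proteins, with 41 of 64 below 0. In Nx D against Nx P cells they were -0.06 and -0.18. In Hx P against Nx P and in Nx D against Nx P cells the medians of both sets kept their sign under all 4 scalings. The medians come from the same arrays as those of the members and were not tested against them.

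Some genes that act with the mitoribosome also passed the threshold with doranidazole in hypoxia, in both directions, where 15.1% of all probe sets were lower and 12.6% higher. Of 11 translation factors 2 fell (18.2%) and 1 rose (9.09%), shares near those of all probe sets. Tufm, the elongation factor that delivers aminoacyl-tRNA, had 6.62, 6.88 and 7.35 in Hx D cells, against 8.52, 8.35 and 9.21 in Hx P cells, and fell by 1.75 (SE 0.26, adjusted p = 0.000247). Gfm2, a ribosome recycling factor, fell by 1.06 (SE 0.24, adjusted p = 0.0048). Mtrf1l, a release factor that ends translation at stop codons, had 11.08, 10.68 and 10.55 in Hx D cells, against 9.44, 9.05 and 9.47 in Hx P cells, and rose by 1.45 (SE 0.21, adjusted p = 0.000248). Of 5 ribosomal proteins with other names, Gadd45gip1 (-1.0) and Dap3 (-0.65) fell (40.0%). Gadd45gip1 lost its call after quantile normalization and without Hx P replicate 2 or Hx D replicate 2 (adjusted p up to 0.0966). Dap3 lost it after quantile and cyclic loess normalization, in the fit of the hypoxia arrays alone and without Hx P replicate 1, Hx P replicate 2 or Hx D replicate 2 (adjusted p up to 0.163).

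Of 26 assembly and rRNA modification factors 6 fell (23.1%) and 2 rose (7.69%), while 4 fell and 4 rose after quantile normalization. The falls included the methyltransferases of the small-subunit rRNA Tfb1m (-1.92, SE 0.38, adjusted p = 0.00201) and Mettl15 (-1.91, SE 0.32, adjusted p = 0.00068), Nsun4 (-1.51, SE 0.36, adjusted p = 0.00662), which acts in both rRNA modification and large-subunit assembly, and the GTPase Mtg1 (-1.35). Mtg1 lost its call in the fit of the hypoxia arrays alone (adjusted p = 0.0515), and Mettl17 (-1.05) lost it in 13 of 21 alternatives, including the omission of any single array but Nx P replicate 2 or Hx D replicate 3 (adjusted p up to 0.161). Eral1, a chaperone of the small-subunit rRNA, was lower in Hx P than in Nx P cells (log2 difference -1.29, adjusted p = 0.0166) and fell further by 0.96 with doranidazole in hypoxia (adjusted p = 0.00978).

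Of 9 genes for mitochondrial DNA upkeep and transcription 3 rose (33.3%) and 2 fell (22.2%). Polg2, the accessory subunit of the mitochondrial DNA polymerase, had 10.62, 9.80 and 9.28 in Hx D cells, against 6.03, 5.80 and 5.66 in Hx P cells. It rose by 4.08 (SE 0.29, adjusted p = 6.97e-07), and its arrays in normoxia read 6.32, 6.69 and 6.16 in Nx D cells and 6.45, 6.01 and 6.26 in Nx P cells. The helicase gene Twnk rose by 1.49 (SE 0.32, adjusted p = 0.00386) and the transcription factor gene Tfb2m by 1.12 (adjusted p = 0.00162), while the elongation factor gene Tefm fell by 1.74 (adjusted p = 0.0236) and Ssbp1, the single-stranded DNA binding protein, by 0.70 (adjusted p = 0.00656). The fall of Tefm was not past the threshold after quantile normalization, in the fit of the hypoxia arrays alone or without Hx P replicate 1 (adjusted p up to 0.0907). Among 8 regulators of mitochondrial biogenesis only Yy1 passed (12.5%, near the 12.6% of all probe sets that rose), with a rise of 1.15 (SE 0.22, adjusted p = 0.00181). Gabpa (-0.35) and Nrf1 (-0.36), whose motifs were searched above, and Myc (-0.53), an E-box factor, did not pass. Of 16 mitochondrial aminoacyl-tRNA synthetases Tars2 (-0.80) and Nars2 (-0.74) fell (12.5%, below the 15.1% of all probe sets), and both lost the call after quantile and cyclic loess normalization and in the fit of the hypoxia arrays alone. Tars2 lost it also with the trended prior and without Nx D replicate 3, Hx P replicate 1 or 3 or Hx D replicate 1 or 2 (adjusted p up to 0.227), and Nars2 without Hx P replicate 1 or 2 or Hx D replicate 2 (adjusted p up to 0.189).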

How the data were processed

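Total RNA of 12 samples of murine glioma stem cells was measured on Clariom S Mouse arrays, and the authors made log2 signals per probe set with Transcriptome Analysis Console. The deposited log2 values were used as given. The summarization and normalization behind them are not given in the sources used here. Both deposited tables held the same values, and 0 of 66 array pairs were identical. Groups came from the labels. All 22206 probe sets were fitted with limma 3.58.1 (R 4.3.3, lmFit and eBayes, 4 groups, 12 arrays, two-sided), p-values were adjusted by Benjamini-Hochberg over all of them, and an adjusted p under 0.05 was the threshold. The model was tested on simulated data. The number of arrays, 3 per group, limits the precision, and each SE is the fitted one.

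Members and lists were chosen with earlier results of these data known. Named members were the 12 that fell and up to 8 that rose most in hypoxia with separated arrays, up to 5 each way in other comparisons, paralogs, stalk members, 3 by smallest p per list, the brightest and dimmest member and list genes past the threshold with a log2 difference over 1. Genes named beside these were chosen after their values were seen. The labels number the replicates but state no pairing of samples between groups. Nx D and Nx P arrays of equal replicate number had correlations of their deviations from the group means of 0.202, 0.329 and 0.326. Those of Hx D and Hx P were -0.0202, -0.024 and -0.0466. For Hx P and Nx P they were -0.0205, 0.264 and 0.356, and for Hx D and Nx D 0.143, 0.031 and -0.00816. The main fit held no replicate block. Alternatives were quantile, cyclic loess and median scaling, a filter of dim probe sets, a trended robust prior, array weights, a replicate block, fits of the compared groups alone, the fold threshold of the methods (more than 2 or less than 0.5, unadjusted p under 0.05) and the omission of each array. Promoter windows and positions came from RefSeq tables of GRCm38.p6.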

Additional observations from a re-analysis of the deposited data

Results flagged for a closer look

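In 9 members and 5 partner genes the response to doranidazole differed between hypoxia and normoxia by the test of the difference itself (limma, adjusted p under 0.05). The differences in log2 response, hypoxia minus normoxia, were -1.46 for Mrpl24, -1.41 for Mrpl30, -1.37 for Mrpl23, -1.10 for Mrps36, -1.09 for Mrpl41, -1.06 for Mrpl17 and -1.0 for Mrpl48, and 1.16 for Mrps9 and 1.01 for Mrps18c. Among the partner genes they were -1.74 for Mettl15, -1.40 for Tufm and -1.13 for Gfm2, and 1.30 for Mtrf1l and 3.92 for Polg2. Polg2 was the largest of these 14 in size. The calls of Mrps9, Mrpl17, Mtrf1l and Polg2 passed in all 20 alternatives. Mettl15 lost its call in 3 (adjusted p up to 0.0594), Tufm in 5, Mrpl30 in 8, Mrpl48 and Mrps18c in 10, Mrpl24 and Mrpl41 in 11, Mrpl23 in 12 and Mrps36 and Gfm2 in 13 of the 20, with an adjusted p up to 0.171 in Mrpl41. None of the 14 changed direction.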

How the results depend on the processing

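Of the 20 members named for doranidazole in hypoxia that passed, 12 kept their call under every alternative, as did 2 of 9 for the difference of response, 0 of 2 for Hx P against Nx P and 5 of 7 for Hx D against Nx D, and none of these turned its direction. Quantile normalization called 8 members higher and 15 lower with doranidazole in hypoxia, beside 13.5% and 12.9% of all probe sets. For the difference of response it called 6 higher (7.89%) and 1 lower (1.32%), beside 6.45% and 6.72%. In Hx D against Nx D cells it called 5 higher and 20 lower, beside 13.6% and 12.8%. Cyclic loess normalization called 7 higher and 17 lower, 6 higher and 1 lower, and 6 higher and 21 lower in the same comparisons. Of all probe sets it called 12.6% higher and 13.7% lower, 5.94% higher and 7.06% lower, and 13.2% higher and 13.2% lower. With array medians set equal, 1 was higher for the difference of response and 0 in Hx D against Nx D cells, beside 3.86% and 9.28% of all probe sets. A trended robust prior gave 1 higher and 3 lower for the difference, beside 4.97% and 8.06% of all probe sets. It gave 0 higher in Hx D against Nx D cells, beside 14.2%. Array weights called 2 lower in normoxia, 12 lower for the difference and 24 lower in Hx P against Nx P cells, beside 2.29%, 10.8% and 5.56% of all probe sets. With replicate blocks in the fit of all arrays (replicate block), 4 were lower in Hx P against Nx P cells, beside 0.865% of all probe sets. In the normoxia arrays alone 3 were lower with doranidazole, beside 3.1%. The replicate block changed no other count by more than 1.5 times, nor did leaving out dim probe sets or taking 1 probe set per gene. Fits of the compared groups alone called 0 lower in Hx P against Nx P cells, beside 0.0405% of all probe sets. They called 1 higher in Hx D against Nx D cells, beside 9.75%. The fold threshold of the methods gave 1 higher and 11 lower (14.5%) with doranidazole in hypoxia, beside 6.92% and 11.9% of all probe sets. It gave 3 higher (3.95%) and 12 lower (15.8%) for the difference, beside 6.53% and 11.4%. In Hx P against Nx P cells 1 was lower (1.32%), beside 2.26%. In Hx D against Nx D cells 0 were higher and 21 lower (27.6%), beside 6.56% and 12.6%. Leaving out single arrays gave 2 to 5 higher and 15 to 26 lower with doranidazole in hypoxia, beside 8.65% to 15% and 12.3% to 16.8% of all probe sets. It gave 1 to 4 higher and 1 to 14 lower for the difference, beside 3.41% to 8.01% and 6.4% to 11.6%. In Hx P against Nx P cells 0 to 9 were lower, beside 0.045% to 3.5%. In Hx D against Nx D cells 0 to 3 were higher, beside 8.75% to 16%. The causes of these shifts were not tested. The number of arrays limits small changes. The Hx D arrays have a narrower spread of signal than the others, and its part in the members' shifts was not tested.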
